A study of Mus musculus with 90 samples.

Results

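The first 8 h of the light phase were examined in livers of wild-type (WT) mice on the control diet (ctrl.), by comparing 4 mice at zeitgeber time 8 (ZT8) with 3 mice at ZT0. These 7 of the 90 libraries of the series were chosen by their titles, which give diet, time point, genotype and replicate. ZT counts hours from lights on. Each library is polyA RNA from the liver of an adult male C57BL/6J mouse fed chow. All 7 mice carried the GRfl/fl genotype, a floxed glucocorticoid receptor gene (Nr3c1) without Cre recombinase. Control mice ate freely until the last week, when food was offered only in the dark phase from ZT12, so that no food was offered during the interval. The study sampled 6 time points in WT and GR-LKO mice, on ctrl. and on caloric restriction (cal. res.), to follow how diet and the hepatocyte glucocorticoid receptor shape diurnal gene expression. GR-LKO mice have the same floxed gene and Cre from the albumin promoter, so that the receptor is lost in hepatocytes and kept in the other cells of the liver. Cal. res. mice received a ration lowered step by step, also given at ZT12. The same interval was compared in 7 GR-LKO livers on ctrl. (3 at ZT0 and 4 at ZT8) and in 6 WT livers on cal. res. (3 and 3), and 3 WT livers on ctrl. at ZT4 divided the interval.

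The liver clock is a loop of transcription factors. BMAL1 (gene Arntl) pairs with CLOCK or NPAS2 and activates genes through E-boxes, among them the Per and Cry repressors, the REV-ERB repressors (Nr1d1, Nr1d2) and the activators DBP, TEF and HLF of the PAR bZIP family. REV-ERBs silence Arntl, Npas2 and Nfil3 through an element shared with the ROR activators (RORE), and the PAR bZIP activators compete with the repressor NFIL3 at D-boxes. In the daytime fast insulin is low, the liver releases glucose from glycogen and new synthesis and burns fatty acids, whereas lipid synthesis belongs to the fed state.

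The promoter windows of 8 clock genes that rose or fell are printed to show how near the start site these elements lie. Each was taken from RefSeq (GRCm38.p6), holds the 250 bases before and the 50 after the annotated start, and is written 5′ to 3′ on the strand of the gene. Capitals mark the E-box CACGTG in Ciart (chr3:95882179-95882478, minus strand), Tef (chr15:81802423-81802722, plus strand), Per1 (chr11:69098699-69098998, plus strand), Bhlhe41 (chr6:145865371-145865670, minus strand) and Cry1 (chr10:85185005-85185304, minus strand). They mark the D-box TTATGTAA, searched on both strands with TTACGTAA, in Per3 (chr4:151044616-151044915, minus strand). They mark the RORE core TAGGTCA, read on either strand, in Nfil3 (chr13:52980990-52981289, minus strand) and Arntl (chr7:113207261-113207560, plus strand).
Ciart: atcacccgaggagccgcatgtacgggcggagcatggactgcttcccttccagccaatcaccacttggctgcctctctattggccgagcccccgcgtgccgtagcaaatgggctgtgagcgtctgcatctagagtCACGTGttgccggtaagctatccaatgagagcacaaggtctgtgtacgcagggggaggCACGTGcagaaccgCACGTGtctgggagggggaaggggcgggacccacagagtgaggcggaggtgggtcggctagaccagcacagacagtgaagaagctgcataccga
Tef: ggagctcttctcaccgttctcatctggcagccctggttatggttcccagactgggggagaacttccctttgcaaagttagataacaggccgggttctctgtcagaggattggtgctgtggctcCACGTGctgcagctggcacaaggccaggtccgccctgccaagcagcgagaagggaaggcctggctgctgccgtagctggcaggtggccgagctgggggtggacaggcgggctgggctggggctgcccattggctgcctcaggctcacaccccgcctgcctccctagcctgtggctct
Per1: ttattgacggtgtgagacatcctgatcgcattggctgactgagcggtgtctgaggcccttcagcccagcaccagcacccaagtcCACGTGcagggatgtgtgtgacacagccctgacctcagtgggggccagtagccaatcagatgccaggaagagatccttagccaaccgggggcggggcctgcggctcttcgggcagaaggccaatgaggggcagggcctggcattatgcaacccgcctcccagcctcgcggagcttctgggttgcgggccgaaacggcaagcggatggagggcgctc
Bhlhe41: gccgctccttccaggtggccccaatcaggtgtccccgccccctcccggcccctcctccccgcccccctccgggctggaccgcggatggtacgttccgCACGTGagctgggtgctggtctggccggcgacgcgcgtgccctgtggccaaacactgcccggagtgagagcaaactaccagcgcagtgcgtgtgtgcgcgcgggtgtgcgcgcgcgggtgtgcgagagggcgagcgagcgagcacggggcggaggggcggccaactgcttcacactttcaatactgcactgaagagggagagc
Per3: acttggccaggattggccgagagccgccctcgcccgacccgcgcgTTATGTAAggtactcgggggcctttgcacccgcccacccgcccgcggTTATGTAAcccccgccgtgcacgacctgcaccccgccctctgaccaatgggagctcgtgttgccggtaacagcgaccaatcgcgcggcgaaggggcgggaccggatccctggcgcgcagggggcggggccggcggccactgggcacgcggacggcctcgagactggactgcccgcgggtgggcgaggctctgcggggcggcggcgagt
Cry1: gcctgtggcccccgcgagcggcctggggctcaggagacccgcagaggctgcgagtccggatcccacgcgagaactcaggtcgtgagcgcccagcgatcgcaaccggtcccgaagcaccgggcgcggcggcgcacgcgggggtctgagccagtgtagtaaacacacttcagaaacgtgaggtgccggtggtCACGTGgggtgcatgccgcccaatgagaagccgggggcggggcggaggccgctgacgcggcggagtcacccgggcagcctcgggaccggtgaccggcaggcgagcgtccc
Nfil3: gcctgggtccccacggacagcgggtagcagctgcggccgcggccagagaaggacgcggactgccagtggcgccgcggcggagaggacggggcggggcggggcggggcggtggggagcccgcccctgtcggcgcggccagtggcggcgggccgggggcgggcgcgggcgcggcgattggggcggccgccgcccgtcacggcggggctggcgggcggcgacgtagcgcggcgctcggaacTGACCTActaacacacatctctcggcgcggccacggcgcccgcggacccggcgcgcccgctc
Arntl: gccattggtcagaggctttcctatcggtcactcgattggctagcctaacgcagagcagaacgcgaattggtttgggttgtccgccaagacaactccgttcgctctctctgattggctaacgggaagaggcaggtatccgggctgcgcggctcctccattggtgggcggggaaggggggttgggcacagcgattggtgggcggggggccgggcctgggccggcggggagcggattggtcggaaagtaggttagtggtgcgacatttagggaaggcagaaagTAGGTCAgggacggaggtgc
Ciart, whose product represses BMAL1, carried 3 E-boxes in this window, and Per3 carried 2 D-boxes. The windows found for Nr1d1, Nr1d2, Dbp, Npas2 and Cry2 held none of these letters, which says nothing about elements elsewhere in the genes. Of 23 core clock genes tested, 18 had a window, among them 10 that rose at ZT8, of which 4 held an E-box.

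The ZT0 libraries held 11772344 to 15067838 counts and the ZT8 libraries 12301800 to 14981008, and no libraries were identical. Values per mouse are CPM, which are counts scaled to a common library size after TMM adjustment and compare 1 gene between mice and not different genes with each other. ZT0 mouse 3 stood apart. Its log2 CPM correlated with those of ZT0 mice 1 and 2 at 0.968 and 0.972 across genes, against 0.980 to 0.986 for the other pairs of mice of 1 time point at ZT0, ZT4 and ZT8. The genes of the major urinary proteins, abundant secreted liver proteins, took 1.95% of its counts, against 9.60% and 5.85% in ZT0 mice 1 and 2 and 3.82% to 5.15% at ZT8. Saa1, an acute phase gene, had 16.7, 20.7 and 109 CPM in ZT0 mice 1, 2 and 3, and Cxcl9, an interferon-induced chemokine, had 4.35, 5.85 and 47.4 CPM (Cxcl9 was singled out after its values were seen). Results are therefore also given without this mouse.

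All 7 livers were rich in hepatocyte RNA, and no marker of the other liver cells rose, while some of each of 4 types fell. Of 7 hepatocyte markers tested, Apoc3 and Cyp2e1 rose and none fell, with summed levels of 84950 to 117000 CPM at ZT0 and 102000 to 106500 CPM at ZT8. Of 8 Kupffer and myeloid cell markers, Adgre1, Lyz2, Marco and Vsig4 fell and none rose, with sums of 211, 149 and 271 CPM in ZT0 mice 1, 2 and 3 and 133 to 139.6 CPM at ZT8. Col3a1, Dcn and Reln fell among 6 stellate cell markers (217, 244 and 380.4 CPM in ZT0 mice 1, 2 and 3 against 148 to 186 CPM), Cdh5 and Pecam1 among 6 endothelial markers (155 to 161 CPM against 125 to 142 CPM), and Krt19 and Sox9 among 4 cholangiocyte markers tested (49.0 to 62.4 CPM against 30.8 to 59.6 CPM). ZT0 mouse 3 was thus the highest for the myeloid, stellate and cholangiocyte sums, and without it 2 of the 8 myeloid markers (Marco and Vsig4), 1 of the 6 stellate markers (Dcn) and the same endothelial and cholangiocyte markers fell. The defining markers Epcam (cholangiocytes), Plin1 (adipocytes) and Cpa1 (exocrine pancreas) were at 0 in every mouse. The 8 adipocyte markers still summed to 2169 to 4455 CPM at ZT0, lowest in mouse 3, and to 3423 to 4304 CPM at ZT8. Of these, 2 were tested and neither was called. In such bulk samples fewer cells of a type and less RNA per cell cannot be told apart, and the part of these cells in the results was not tested.

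The interval moved a wide set of genes, most of them by less than 2-fold, and clock genes were among those that moved furthest. The quasi-likelihood test of edgeR, with p-values adjusted by the Benjamini-Hochberg method, called 1961 of 11873 genes (16.5%) at an adjusted p under 0.05, 1126 higher at ZT8 (9.48%) and 835 lower (7.03%). The fitted change was at least 2-fold for 378 of them, 171 up and 207 down. The CPM of the ZT0 and ZT8 mice did not overlap for 3681 genes (31%). Without ZT0 mouse 3 the test called 2096 genes. The count fell to 983 without ZT0 mouse 2 and to 1179, 1250 and 1081 without ZT8 mice 1, 2 and 3.

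Of the 12 genes that rose most, 7 belong to the clock or its direct output, namely Dbp, Ciart, Nr1d1, Bhlhe41, Per3, Rgs16 and Usp2. The list was led by Gm8430, a predicted gene, and Hsph1, a co-chaperone of the HSP70 machine, which had no count in any ZT0 mouse. Gm8430 had 18.5, 7.82, 10.2 and 15.8 CPM in the ZT8 mice, at least 51.3-fold above the level that 3 counts per library would give at ZT0. Hsph1 had 5.19, 10.8, 6.82 and 2.39 CPM at ZT8, at least 24.7-fold higher, but 19.2, 3.61 and 0 CPM at ZT4, so that its level varied from 0 upward within 1 time point. Neither gene was called in other mice, where Gm8430 had means ± SD of 8.23 ± 9.51 CPM at ZT0 and 4.09 ± 4.91 CPM at ZT8 in GR-LKO livers and 8.49 ± 4.15 CPM and 7.93 ± 6.92 CPM on cal. res. Hsph1 had 13.6 ± 9.85 CPM and 1.8 ± 3.6 CPM in GR-LKO livers and 3.58 ± 3.55 CPM and 3.91 ± 2.06 CPM on cal. res. Predicted genes (symbols with Gm) can share reads with near-identical copies, and whether Salmon divided such reads differently between libraries was not tested. Gm4737 and Gm10288 were also among the 12, but lost the call with single mice left out. The edgeR adjusted p of Gm4737 went up to 0.0728 without ZT0 mouse 2 or ZT8 mouse 1, 3 or 4, and that of Gm10288 up to 0.11 without ZT0 mouse 2 or 3 or ZT8 mouse 1, 2, 3 or 4. Lnx1, a ubiquitin ligase, likewise went up to 0.135 without ZT0 mouse 1, 2 or 3 or ZT8 mouse 2 or 3.

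The 12 genes that fell most began with the clock genes Npas2 and Arntl and went on to genes of several other roles. Slc34a2, a phosphate carrier, stood at 11.7, 10.2 and 1.57 CPM in the ZT0 mice and at 0.491, 0.284, 0.568 and 0.797 CPM in the ZT8 mice. Cdkn1a, the cell cycle inhibitor p21, stood at 9.86, 10.8 and 16.7 CPM at ZT0 and at 1.05, 1.14, 0.812 and 1.33 CPM at ZT8 (log2 fold change -3.52 ± 0.25 (SE), edgeR adjusted p = 0.000201). Chka, a choline kinase of phosphatidylcholine synthesis, stood at 137, 206 and 237 CPM and at 18.9, 17.6, 22.2 and 20.1 CPM (log2 fold change -3.31 ± 0.18 (SE), edgeR adjusted p = 7.33e-05). All 3 were lower in each ZT8 mouse than in any ZT0 mouse, which was a condition of entry to this list and not a further result. Ppard, a nuclear receptor for fatty acids, fell from 48.5, 57.4 and 50.3 CPM to 6.73, 5.97, 7.95 and 7.04 CPM (log2 fold change -2.93 ± 0.11 (SE), edgeR adjusted p = 7.4e-06), and the ZT4 mice were already below the ZT0 mice, at 9.09, 16.2 and 11.4 CPM. Further members were Loxl4, a lysyl oxidase, Dhrs9, a retinol dehydrogenase, Dnmt3b, a DNA methyltransferase, Lgalsl, a galectin-like gene, and Pdk4, with log2 fold changes of -3.71, -2.77, -2.72, -2.62 and -2.77.

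The core clock turned over within the 8 h. Of 23 clock genes tested, 11 rose and 4 fell, 65.2% against 16.5% of all genes, with a median log2 fold change of 0.84 against -0.025 over all genes. None of these 15 calls was lost with any 1 mouse left out, and without ZT0 mouse 3 the counts were 11 and 5. Arntl, the gene of BMAL1, stood at 28.4, 21.8 and 38.5 CPM in the ZT0 mice and at 0.210, 0.925, 0 and 1.40 CPM in the ZT8 mice (log2 fold change -5.48 ± 0.54 (SE), edgeR adjusted p = 0.000751). Npas2, its partner, went from 8.62, 17.4 and 11.9 CPM to 0.140, 0.284, 0.243 and 0.199 CPM (log2 fold change -5.83 ± 0.34 (SE), edgeR adjusted p = 9.38e-05). Both were near 0 in every ZT8 mouse. Clock, the other partner, had 10.1, 17.2 and 3.71 CPM at ZT0 and 5.19, 8.82, 2.84 and 0 CPM at ZT8 and did not pass the test (edgeR adjusted p = 0.36), with mice of each time point far apart.

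The repressors and output activators of the clock rose. Nr1d1, the gene of REV-ERB alpha, stood at 3.73, 3.10 and 4.70 CPM in the ZT0 mice and at 171, 149, 181 and 149.9 CPM in the ZT8 mice (log2 fold change 5.39 ± 0.16 (SE), edgeR adjusted p = 4.49e-06). Nr1d2, the gene of REV-ERB beta, went from 12.3, 8.33 and 13.1 CPM to 123, 139.9, 148 and 139 CPM (log2 fold change 3.60 ± 0.16 (SE), edgeR adjusted p = 2.27e-05). Dbp, the PAR bZIP activator, rose furthest of the clock genes, from 0.533, 0.413 and 0.356 CPM to 58.7, 84.1, 80.8 and 98.7 CPM (log2 fold change 7.51 ± 0.28 (SE), edgeR adjusted p = 7.4e-06). In none of these 3 did a ZT8 mouse come near the ZT0 mice. Tef, a second activator of that family, went from 34.1, 30.96 and 27.9 CPM to 255, 277, 256 and 237 CPM (log2 fold change 3.04 ± 0.09 (SE), edgeR adjusted p = 4.49e-06), and Hlf, the third, from 42.9, 42.04 and 25.8 CPM to 65.1, 68.9, 67.9 and 70.99 CPM (log2 fold change 0.88 ± 0.16 (SE), edgeR adjusted p = 0.0108). Nfil3, which competes with them at D-boxes, fell from 43.4, 42.3 and 47.2 CPM to 13.2, 6.76, 12.99 and 10.4 CPM (log2 fold change -2.05 ± 0.20 (SE), edgeR adjusted p = 0.000743). The 3 activators and their repressor thus moved in opposite directions, Hlf by much the smallest step.

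The Per and Cry genes did not move as a block. Per3 rose from 4.09, 3.10 and 3.49 CPM to 50.6, 59.6, 48.05 and 57.6 CPM (log2 fold change 3.92 ± 0.13 (SE), edgeR adjusted p = 6.22e-06), and Per1 from 3.91, 2.82 and 2.64 CPM to 21.9, 44.9, 34.98 and 29.7 CPM (log2 fold change 3.39 ± 0.28 (SE), edgeR adjusted p = 0.000435). Per2, the third period gene, stood at 14.6, 22.7 and 8.77 CPM and 25.6, 34.8, 23.9 and 26.9 CPM and did not pass the test (edgeR adjusted p = 0.0813), although each ZT8 mouse was above each ZT0 mouse. Cry2 rose from 18.6, 20.6 and 20.4 CPM to 55.8, 52.6, 53.4 and 54.2 CPM (log2 fold change 1.43 ± 0.07 (SE), edgeR adjusted p = 3.34e-05), while Cry1 fell from 24.1, 25.2 and 27.01 CPM to 5.40, 4.41, 4.14 and 6.31 CPM (log2 fold change -2.34 ± 0.14 (SE), edgeR adjusted p = 0.000108). The 2 cryptochromes, both repressors of BMAL1, thus moved in opposite directions. Bhlhe41 and Bhlhe40, the DEC repressors, rose with log2 fold changes of 4.67 and 1.33, and Ciart with 5.39.

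**Figure D1:**
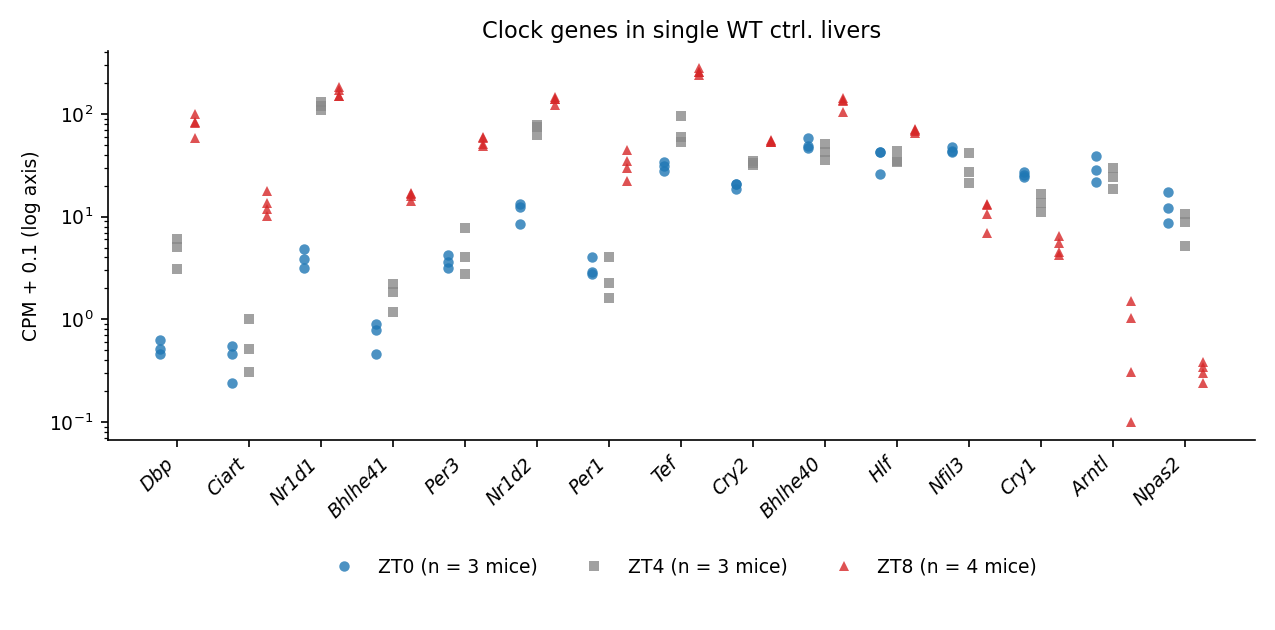
CPM of 15 clock genes in each WT ctrl. mouse at ZT0, ZT4 and ZT8, with 0.1 added and on a log axis, 1 point per mouse. Of the times drawn, Arntl and Npas2 lie near the floor at ZT8 only, and Dbp, Per3 and Ciart are highest at ZT8. Nr1d1 and Nr1d2 are already far above ZT0 at ZT4.

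The livers taken at ZT4 divided the interval into steps of 4 h. Between ZT0 and ZT4, 2 of 11773 genes were called (0.017%), both of them REV-ERB genes. An unadjusted p under 0.05 was reached by 1421 genes, and DESeq2 called 167. Nr1d1 stood at 118, 109 and 129.9 CPM in the 3 ZT4 mice (log2 fold change 4.93 ± 0.16 (SE), edgeR adjusted p = 7.89e-05 against ZT0) and Nr1d2 at 77.5, 61.8 and 74.2 CPM (log2 fold change 2.65 ± 0.18 (SE), edgeR adjusted p = 0.00826). Between ZT4 and ZT8, 790 of 11815 genes were called (6.69%), 383 up and 407 down. Arntl stood at 18.4, 29.3 and 23.96 CPM at ZT4 and Npas2 at 5.07, 10.4 and 8.78 CPM, within or close to the range of the ZT0 mice, and both fell between ZT4 and ZT8 (log2 fold change -5.17 ± 0.54 (SE), edgeR adjusted p = 0.00176 and log2 fold change -5.18 ± 0.35 (SE), edgeR adjusted p = 0.00026). Dbp had 4.998, 2.99 and 5.92 CPM at ZT4, above each ZT0 mouse, and its log2 fold change was 3.39 over the first 4 h (edgeR adjusted p = 0.0617) and 4.12 over the second (adjusted p = 0.000249). Per3, Per1 and Ciart had ZT4 levels that overlapped those at ZT0, at 7.57, 2.64 and 3.95 CPM, 3.94, 1.53 and 2.18 CPM and 0.909, 0.417 and 0.204 CPM. The counts of the 2 steps share the ZT4 libraries and come from tests of 6 and 7 libraries.

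Most called genes downstream of the PAR bZIP factors and the clock rose too. Of 27 such genes tested, 14 rose and 2 fell (Lonrf3 and Mreg), 59.3% against 16.5% of all genes, with a median log2 fold change of 0.55. Without ZT0 mouse 3 the counts were 14 and 3. When single mice were left out 11 to 14 rose and 2 to 3 fell. Rgs16, a brake on G protein signalling, stood at 0.267, 1.65 and 0.427 CPM in the ZT0 mice and at 63.6, 35.2, 119.5 and 86.9 CPM in the ZT8 mice (log2 fold change 6.51 ± 0.63 (SE), edgeR adjusted p = 0.000743). Usp2, a clock-controlled ubiquitin protease, went from 5.15, 1.72 and 1.995 CPM to 35.9, 40.2, 39.2 and 35.9 CPM (log2 fold change 3.71 ± 0.31 (SE), edgeR adjusted p = 0.000435), and Wee1, a kinase that holds cells before mitosis, from 3.55, 3.23 and 4.35 CPM to 19.2, 18.8, 20.3 and 19.2 CPM (log2 fold change 2.37 ± 0.12 (SE), edgeR adjusted p = 4.53e-05). The 4 ZT8 mice were almost alike for Usp2 and Wee1 and spread widely for Rgs16. Por, the electron donor of the cytochromes P450, went from 113, 104 and 149 CPM to 377, 317, 386 and 296 CPM (log2 fold change 1.48 ± 0.15 (SE), edgeR adjusted p = 0.000976). Gpcpd1, a glycerophosphodiesterase, and Klf10, a transcriptional repressor, rose with log2 fold changes of 2.27 and 3.02. Nr1i3, the xenobiotic receptor CAR, had a log2 fold change of 1.14 and an edgeR adjusted p of 0.0296, which went up to 0.0923 without ZT0 mouse 2 or ZT8 mouse 1, 3 or 4. Alas1, the first enzyme of haem synthesis, had 250, 154 and 119 CPM at ZT0 and 193, 652, 71.7 and 111 CPM at ZT8, ranges that overlapped (edgeR adjusted p = 0.627).

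Letters of the E-box were found near the start sites of more of the genes that rose. Of 9215 tested genes with a window, 18.2% of the 884 that rose held CACGTG, against 10.1% of the 646 that fell and 11.1% of the 7685 not called. The D-box (TTATGTAA or TTACGTAA) was found for 1.58%, 0.774% and 0.859% of these genes, and the RORE core TAGGTCA for 2.38%, 4.18% and 2.39%. The FoxO element GTAAACA, read by the forkhead factors that insulin keeps out of the nucleus, was found for 5.77%, 3.10% and 2.93%. The sterol element TCACNCCAC (2.04%, 1.39% and 1.37%) and the cAMP element TGACGTCA (3.05%, 3.25% and 3.55%) were also searched, all on both strands, and no searched motif contains another. Counted per window instead of per gene, the E-box was in 15% (rose), 8.02% (fell) and 9.29% (not called), and the FoxO element in 4.48%, 2.36% and 2.6%. Among all 32851 windows of 300 bases in the table, also counted per window, 7.15% held the E-box, 1.06% the D-box, 2.61% the RORE core, 3.65% the FoxO element, 1.24% the sterol element and 1.79% the cAMP element. Genes that rose had slightly more windows (1.34 per gene against 1.31 and 1.27) and a higher GC content (61.7% against 60.1% and 60.2%), whose part in these shares was not tested, and the shares are given as descriptions only.

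**Figure D2:**
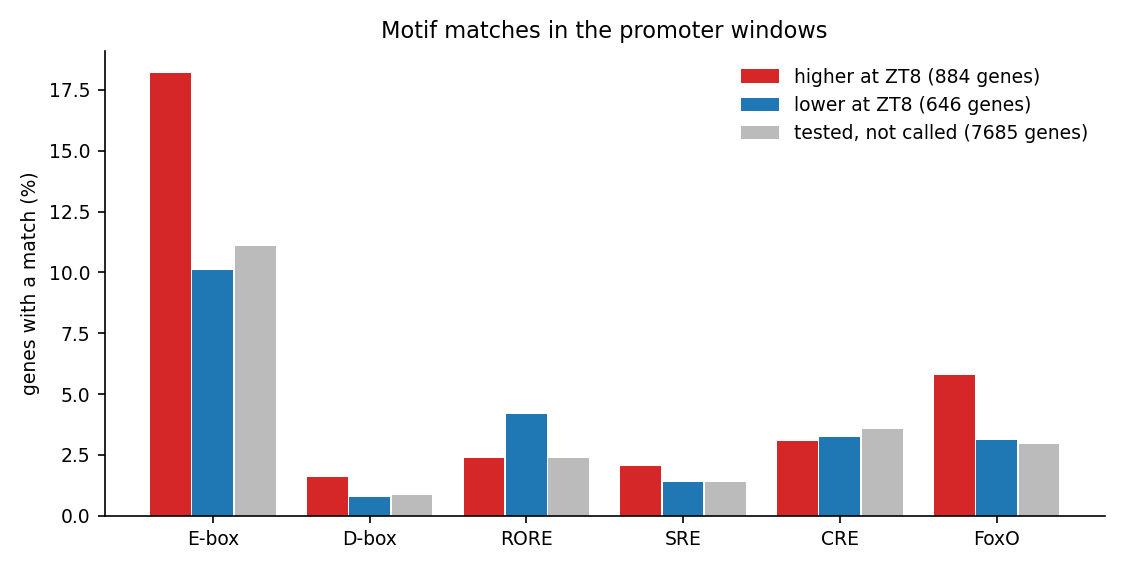
Percent of genes with at least 1 match of each motif in a promoter window, for genes higher at ZT8, lower at ZT8 and tested but not called. The E-box bar of the higher genes stands at 18.2% against 10.1% and 11.1%, the RORE bar is highest for the lower genes at 4.18%, and the D-box bars are all under 2%.

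Of the called genes of glucose and glycogen handling, more rose than fell. Of 32 tested, 10 rose and 4 fell, 43.8% against 16.5% of all genes (median log2 fold change 0.23), and without ZT0 mouse 3 the counts were 8 and 5. When single mice were left out 5 to 8 rose and 2 to 5 fell. Pck1, the gatekeeper enzyme of gluconeogenesis, stood at 421, 136 and 592 CPM in the ZT0 mice and at 1694, 1479, 1750 and 1167 CPM in the ZT8 mice (log2 fold change 1.98 ± 0.44 (SE), edgeR adjusted p = 0.0214), with every ZT8 mouse above every ZT0 mouse. Its edgeR adjusted p went up to 0.054 without ZT0 mouse 1 or ZT8 mouse 3. G6pc, which frees glucose in the last step, had 255, 155 and 230.4 CPM and 168, 196, 95.9 and 197 CPM and did not pass (edgeR adjusted p = 0.342). Slc37a4 and Slc2a2, the carriers that bring glucose-6-phosphate to that step and glucose across the cell membrane, rose by 0.91 and 1.01 on the log2 scale. The edgeR adjusted p of Slc37a4 went up to 0.0618 without ZT0 mouse 2 or ZT8 mouse 1, 2 or 4, and that of Slc2a2 up to 0.0551 without ZT8 mouse 2 or 4.

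Genes of glycogen synthesis and breakdown were both among those that rose. Gys2, the liver glycogen synthase, rose from 106, 97.98 and 73.96 CPM to 251, 332, 290.3 and 299 CPM (log2 fold change 1.65 ± 0.14 (SE), edgeR adjusted p = 0.000484). Stbd1, which tethers glycogen for autophagy, rose from 41.4, 38.6 and 45.96 CPM to 100.4, 94.9, 115 and 116 CPM (log2 fold change 1.33 ± 0.10 (SE), edgeR adjusted p = 0.000269). Both groups of mice were far apart for these genes. Ppp1r3b, the subunit that brings protein phosphatase 1 to glycogen in the liver, fell from 181, 196 and 113 CPM to 33.01, 24.3, 21.4 and 33.8 CPM (log2 fold change -2.55 ± 0.22 (SE), edgeR adjusted p = 0.000484). Ppp1r3c, a related subunit, fell by 1.23 on the log2 scale (edgeR adjusted p = 0.0218, and up to 0.0623 without ZT0 mouse 1 or ZT8 mouse 1). Pygl, the liver glycogen phosphorylase, had a log2 fold change of -0.17 and did not pass (edgeR adjusted p = 0.531). Without ZT0 mouse 3, Pygl had -0.37 and passed (edgeR adjusted p = 0.0448). The subunits Phka2 and Phkg2 of phosphorylase kinase and the enzymes Pgm1 and Ugp2 of glycogen synthesis and breakdown also rose.

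In the insulin and FoxO list 9 of 28 genes rose and Cdkn1a alone fell, 35.7% against 16.5% of all genes (median log2 fold change 0.24). The counts were the same without ZT0 mouse 3, and 3 to 9 rose when single mice were left out. Insr, the insulin receptor, rose from 127, 124 and 120.2 CPM to 159.5, 168, 170.5 and 183 CPM (log2 fold change 0.44 ± 0.07 (SE), edgeR adjusted p = 0.00439), and Foxo3 from 33.3, 32.1 and 34.8 CPM to 61.8, 63.7, 65.01 and 74.97 CPM (log2 fold change 0.98 ± 0.08 (SE), edgeR adjusted p = 0.000484). Trib3, a pseudokinase that binds AKT, rose from 1.69, 1.93 and 1.71 CPM to 16.2, 14.7, 25.6 and 18.5 CPM (log2 fold change 3.38 ± 0.23 (SE), edgeR adjusted p = 0.000176). The ZT0 and ZT8 mice did not overlap for these 3 genes. Bcl6, a repressor of fasting genes, rose from 10.6, 7.22 and 9.05 CPM to 84.1, 15.2, 103 and 38.2 CPM (log2 fold change 2.74 ± 0.62 (SE), edgeR adjusted p = 0.0235), with a wide spread at ZT8 and an adjusted p that went up to 0.0855 without ZT0 mouse 1, 2 or 3 or ZT8 mouse 1 or 3. Foxo1 had a log2 fold change of 0.42 (edgeR adjusted p = 0.0319, and up to 0.0949 without ZT0 mouse 1 or 2 or ZT8 mouse 1, 3 or 4). Irs2, the insulin receptor substrate that fasting induces, had 13.5, 23.1 and 16.96 CPM and 30.8, 14.2, 37.7 and 24.8 CPM and did not pass (edgeR adjusted p = 0.254). Igfbp1, a classic FoxO target, ranged from 4.80 to 50.1 CPM among the ZT0 mice alone and did not pass either (adjusted p = 0.695). Angptl8, a feeding-induced lipase regulator, fell from 91.8, 90.1 and 85.1 CPM to 39.2, 23.3, 29.1 and 31.2 CPM (log2 fold change -1.55 ± 0.15 (SE), edgeR adjusted p = 0.000743).

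All but 1 of the called genes of fatty acid oxidation rose, while several well-known fasting markers did not pass the test. Of 38 genes tested, 13 rose and Pdk4 alone fell, 36.8% against 16.5% of all genes, with a median log2 fold change of 0.18. Without ZT0 mouse 3 the counts were 10 and 3 and the median 0.09. When single mice were left out 5 to 10 rose and 1 to 3 fell. Cpt1a, the gate of fatty acid entry into mitochondria, stood at 229, 168 and 199 CPM in the ZT0 mice and at 473, 405, 404 and 339 CPM in the ZT8 mice (log2 fold change 1.02 ± 0.14 (SE), edgeR adjusted p = 0.00317). Ppara, the nuclear receptor that drives this programme, went from 81.02, 69.4 and 64.9 CPM to 144, 122, 168 and 128 CPM (log2 fold change 0.96 ± 0.13 (SE), edgeR adjusted p = 0.0028). For both, each ZT8 mouse was above each ZT0 mouse. Acaa1a and Eci2, enzymes of peroxisomal and mitochondrial oxidation, rose by 0.84 and 0.82 on the log2 scale. Angptl4, a lipase inhibitor, rose from 27.98, 8.19 and 3.42 CPM to 50.3, 50.6, 56.01 and 45.7 CPM (log2 fold change 1.96 ± 0.56 (SE), edgeR adjusted p = 0.0474), with an adjusted p up to 0.145 without ZT0 mouse 2 or ZT8 mouse 1, 2, 3 or 4. Cyp4a10 and Cyp4a14, omega-hydroxylases under PPAR alpha, had -0.21 and -0.54 and did not pass (adjusted p = 0.606 and 0.463). Without ZT0 mouse 3, Cyp4a10 had -0.5 and passed as lower at ZT8 (edgeR adjusted p = 0.0214). Fgf21, the fasting hormone of the liver, was below 1 CPM in all 7 mice and was not tested. Pdk4, the kinase that shuts pyruvate out of oxidation, fell from 32.4, 28.1 and 24.8 CPM to 5.47, 1.92, 3.65 and 5.64 CPM (log2 fold change -2.77 ± 0.29 (SE), edgeR adjusted p = 0.00104), against the direction of the other called members.

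Of 22 genes of lipogenesis and its control tested, 1 rose (Slc25a1) and 4 fell, 22.7% against 16.5% of all genes. Those that fell included Elovl3, Elovl5 and Insig2. The median log2 fold change was -0.11, and without ZT0 mouse 3 it was -0.34, with 2 up and 4 down. When single mice were left out 0 to 2 rose and 3 to 7 fell, and the adjusted p of Elovl5 went up to 0.069 without ZT0 mouse 2 or ZT8 mouse 1, 2 or 3. Fasn, fatty acid synthase, had 257, 604 and 257 CPM and 184, 177, 128 and 422 CPM (edgeR adjusted p = 0.307), and Srebf1, which drives the pathway, had 245, 427 and 385 CPM and 324, 358, 319 and 411 CPM (adjusted p = 0.976). The ZT0 and ZT8 ranges overlapped for both, with ZT0 mouse 2 highest in each. Elovl3, an elongase of very long chain fatty acids, fell from 347, 216 and 181 CPM to 43.7, 39.3, 42.2 and 42.6 CPM (log2 fold change -2.57 ± 0.20 (SE), edgeR adjusted p = 0.00031), and Insig2, which holds SREBPs in the endoplasmic reticulum, from 264, 215 and 196 CPM to 97.4, 95.3, 98.7 and 105 CPM (log2 fold change -1.20 ± 0.10 (SE), edgeR adjusted p = 0.000435).

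In cholesterol synthesis and uptake 3 of 26 genes rose and 6 fell, 34.6% against 16.5% of all genes (median log2 fold change -0.20). The counts were 3 and 4 without ZT0 mouse 3, and 1 to 8 fell when single mice were left out. The 6 that fell were Hmgcs1, Mvd, Lss, Fdft1, Pmvk and Dhcr7, all enzymes of the pathway. Hmgcs1, an early enzyme, fell from 471, 667 and 469 CPM to 309, 342, 289 and 352 CPM (log2 fold change -0.74 ± 0.14 (SE), edgeR adjusted p = 0.0112). Stard4, a sterol carrier, rose by 0.66. Of 26 bile acid genes 7 rose and 2 fell, also 34.6%, with a median of 0.20. Without ZT0 mouse 3 the counts were 7 and 4 and the median 0.09, and when single mice were left out 3 to 10 rose. Klb, the co-receptor for FGF15 that restrains bile acid synthesis, rose from 17.8, 21.3 and 17.5 CPM to 38.97, 39.6, 51.1 and 43.03 CPM (log2 fold change 1.18 ± 0.12 (SE), edgeR adjusted p = 0.000974), and Abcc3, an export pump, by 0.85 on the log2 scale. Cyp7a1, the rate-limiting enzyme, had 328, 143 and 113 CPM and 219, 135, 164 and 154 CPM with overlapping ranges (adjusted p = 0.695).

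Where autophagy genes were called, they rose, with 1 exception. Of 41 genes of autophagy and the lysosome, 15 rose and Lipa, the lysosomal lipase, fell. The share called was 39%, against 16.5% of all genes, and the median log2 fold change was 0.20. Without ZT0 mouse 3 the counts were 17 and 2. When single mice were left out 10 to 17 rose and 0 to 2 fell. Ulk1, the kinase that starts autophagy, stood at 48.1, 41.9 and 50.95 CPM in the ZT0 mice and at 122, 110.1, 110 and 162 CPM in the ZT8 mice (log2 fold change 1.41 ± 0.15 (SE), edgeR adjusted p = 0.00115). Gabarapl1, an ATG8 protein of the autophagosome membrane, went from 233, 197 and 248 CPM to 533, 536, 551 and 462 CPM (log2 fold change 1.19 ± 0.10 (SE), edgeR adjusted p = 0.000484). Both had ZT4 levels in between, at 89.9, 78.7 and 94.6 CPM and 350.5, 384 and 409 CPM. Atg14, Bnip3 and Atg2a, which act in vesicle nucleation, mitophagy and lipid transfer, rose by 0.99, 0.78 and 0.73 on the log2 scale. Map1lc3a and Map1lc3b, the LC3 genes, rose by 0.40 and 0.41, with edgeR adjusted p-values up to 0.0992 without ZT0 mouse 1 or 2 or ZT8 mouse 1, 2, 3 or 4 for the first and up to 0.0601 without ZT0 mouse 1 or 2 or ZT8 mouse 1, 2 or 3 for the second. Sqstm1, the cargo receptor p62, had a log2 fold change of 0.11 and Tfeb, the lysosomal regulator, one of 0.19, and neither passed (adjusted p = 0.387 and 0.338).

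**Figure D3:**
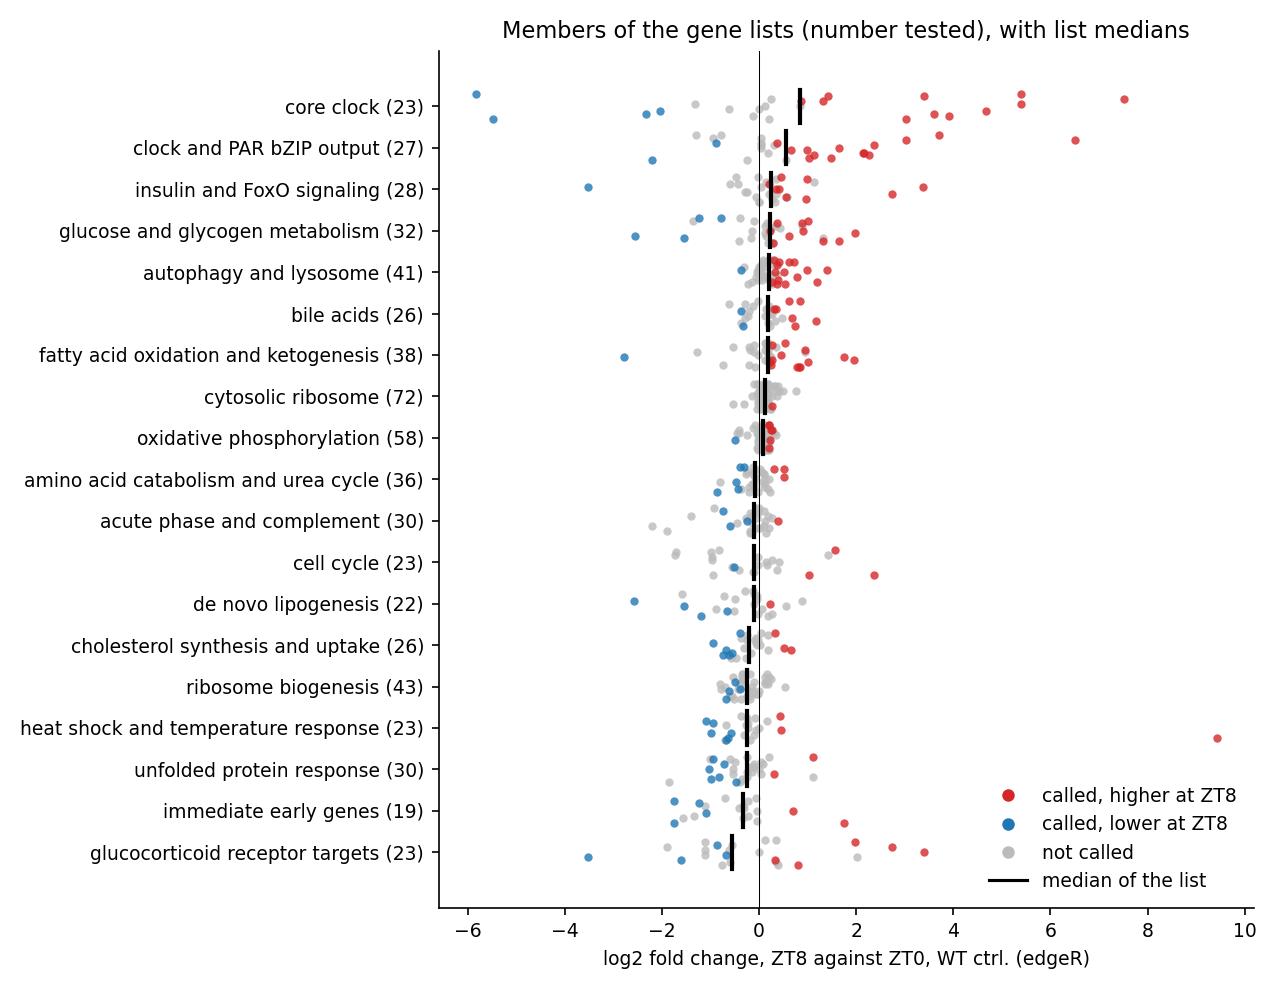
Log2 fold change from ZT0 to ZT8 of every tested member of the 19 gene lists, 1 point per gene and a bar at each median. The core clock spans from -5.83 to 7.51 with a median of 0.84, autophagy and lysosome lies mostly above 0, and ribosome biogenesis lies mostly below 0 with a median of -0.24.

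More chaperone genes fell than rose. Among 23 genes of the heat shock and temperature response 3 rose and 6 fell, 39.1% against 16.5% of all genes (median log2 fold change -0.25). Over all genes 7.03% fell. The counts were 3 and 8 without ZT0 mouse 3, and 4 to 8 fell when single mice were left out. Hsp90aa1, the inducible HSP90, fell from 167, 202 and 164 CPM to 77.8, 82, 67.5 and 110.2 CPM (log2 fold change -1.09 ± 0.16 (SE), edgeR adjusted p = 0.00429), and its co-chaperones Stip1 and Bag3 fell by 0.67 and 0.94 on the log2 scale. Hspa8, the constitutive HSP70, had 674, 1182 and 688 CPM and 749, 647, 587 and 666 CPM (edgeR adjusted p = 0.236). Hsph1 rose against this direction, with the caution given above. In the unfolded protein response 2 of 30 genes rose and 6 fell, 26.7% against 16.5% of all genes (median -0.25). The counts were 1 and 6 without ZT0 mouse 3, and 2 to 6 fell when single mice were left out. Hspa5, the chaperone BiP, fell from 617, 1070 and 624 CPM to 491, 397, 368 and 357 CPM (log2 fold change -0.95 ± 0.21 (SE), edgeR adjusted p = 0.0205), with an adjusted p up to 0.0601 without ZT8 mouse 2, 3 or 4. Atf4, the stress transcription factor, fell from 126, 175 and 128 CPM to 89.4, 96.2, 82.6 and 80.2 CPM (log2 fold change -0.73 ± 0.13 (SE), edgeR adjusted p = 0.0083). Herpud1, of protein degradation at the endoplasmic reticulum, rose from 136, 192 and 116 CPM to 370.5, 287, 344 and 294 CPM (log2 fold change 1.12 ± 0.18 (SE), edgeR adjusted p = 0.00561). ZT0 mouse 2 was the highest ZT0 mouse for Hsp90aa1, Hspa8, Hspa5, Atf4 and Herpud1.

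Genes of protein synthesis and respiration were called at shares under the 16.5% of all genes. Of 43 ribosome biogenesis genes none rose and 4 fell (Nop58, Tsr1, Bysl and Mybbp1a, 9.3% called, median log2 fold change -0.24). When single mice were left out 0 to 6 fell, and each of the 4 genes lost its call in 5 of the 7 fits. Of 72 cytosolic ribosomal protein genes Rps18 rose and none fell (1.39%, median 0.12), but without ZT0 mouse 3 the count was 16 up and none down. Of 58 genes of oxidative phosphorylation 6 rose and Cycs, cytochrome c, fell (12.1%, median 0.08, 8 and 2 without ZT0 mouse 3, and 0 to 8 up when single mice were left out). Their calls sat close to the threshold, since Rps18, Cox4i1, Cyc1 and Cox6b1 had edgeR adjusted p-values of 0.0356, 0.0418, 0.0433 and 0.0461 and each lost the call with any single mouse other than ZT0 mouse 3 left out (up to 0.0943, 0.105, 0.114 and 0.118).

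Amino acid and glucocorticoid genes moved in both directions. Of 36 genes of amino acid catabolism and the urea cycle, 3 rose and 5 fell, 22.2% against 16.5% of all genes (median log2 fold change -0.09). The counts were 4 and 5 without ZT0 mouse 3, and 1 to 4 up and 2 to 6 down over the fits that left out single mice. Tat, tyrosine aminotransferase and a classic glucocorticoid-induced gene, fell from 1088, 1411 and 1928 CPM to 829.6, 722, 805 and 920.4 CPM (log2 fold change -0.86 ± 0.18 (SE), edgeR adjusted p = 0.0174, and up to 0.0518 without ZT8 mouse 3). Bckdha, of branched-chain amino acid breakdown, rose from 183, 172 and 188 CPM to 262, 259, 261 and 264 CPM (log2 fold change 0.52 ± 0.06 (SE), edgeR adjusted p = 0.00158). Of 23 listed glucocorticoid receptor targets, 5 rose and 4 fell (39.1%), with a median of -0.55 that turned to 0.36 without ZT0 mouse 3, when 4 rose and 4 fell. Nr3c1 itself rose from 73.02, 77.3 and 74.8 CPM to 89.1, 99.3, 95.7 and 94.6 CPM (log2 fold change 0.32 ± 0.06 (SE), edgeR adjusted p = 0.0124). Fkbp5, its feedback inhibitor, had 11.6, 13.6 and 13.1 CPM and 20.6, 9.67, 20.9 and 14.7 CPM (edgeR adjusted p = 0.369), and Tsc22d3, the gene of GILZ, fell from 64.5, 49.96 and 37.6 CPM to 28.8, 32.6, 31.01 and 34.4 CPM (log2 fold change -0.69 ± 0.16 (SE), edgeR adjusted p = 0.0265, and up to 0.0764 without ZT0 mouse 1 or 2 or ZT8 mouse 1, 2 or 3). At ZT12, the end of the fast, the means ± SD of Fkbp5, Tsc22d3, Tat and Pck1 in 4 WT ctrl. mice were 72.9 ± 26 CPM, 102 ± 35.2 CPM, 2298 ± 238 CPM and 4366 ± 116 CPM, all above their means at ZT8 (not tested).

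Of 19 immediate early genes tested 2 rose and 4 fell, 31.6% against 16.5% of all genes (median log2 fold change -0.33), with 1 to 2 up and 1 to 4 down when single mice were left out. Junb rose from 8.35, 7.64 and 15.9 CPM to 35.05, 30.8, 31.9 and 46.6 CPM (log2 fold change 1.74 ± 0.27 (SE), edgeR adjusted p = 0.00552) and Id3, an inhibitor of helix-loop-helix factors, fell from 99.9, 75.5 and 162 CPM to 34.1, 43.1, 22.4 and 34.3 CPM (log2 fold change -1.76 ± 0.28 (SE), edgeR adjusted p = 0.00606). Without ZT0 mouse 3, which had the highest ZT0 levels of Junb and Id3, the list had 1 up and 2 down. Of 23 cell cycle genes 3 rose, among them Wee1 and Mcm10, and Ccnd2 fell (17.4%, median -0.10), and the counts without ZT0 mouse 3 were the same with a median of 0.06. Of 30 genes of the acute phase and complement Serpina3n rose and Cp, Hamp and Serpina3m fell (13.3%, median -0.10). Without that mouse the counts were the same and the median 0.003, but with other single mice left out 0 to 3 fell, and the adjusted p of Serpina3m went up to 0.0835 without ZT0 mouse 2 or ZT8 mouse 1, 2, 3 or 4. Hamp, the iron hormone hepcidin, had 1139, 783 and 1271 CPM and 772, 704, 723 and 650.5 CPM (log2 fold change -0.59 ± 0.16 (SE), edgeR adjusted p = 0.0366, and up to 0.0939 without ZT0 mouse 1 or 3 or ZT8 mouse 1, 2, 3 or 4).

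Over the whole day most of the called genes had an extreme at ZT8 or at ZT12. Of the 1126 that rose, 582 (51.69%) had their highest mean of the 6 time points at ZT8 and 470 (41.74%) at ZT12, and 667 (59.24%) had their lowest at ZT0, against 15.68%, 23.63% and 18.75% of all genes tested. Of the 835 that fell, 406 (48.62%) were lowest at ZT8 and 378 (45.27%) at ZT12, and 403 (48.26%) were highest at ZT0, against 15.3%, 23.69% and 19.38%. Since these genes were chosen by their ZT0 and ZT8 levels, the shares at those times are not independent of the choice. Nr1d1 had a mean ± SD of 32.3 ± 9 CPM at ZT12 (n = 4), below ZT8, whereas Per1, Ciart, Usp2 and Pck1 had 71.6 ± 14.9 CPM, 37.9 ± 5.24 CPM, 91.9 ± 8.56 CPM and 4366 ± 116 CPM, above ZT8.

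**Figure D4:**
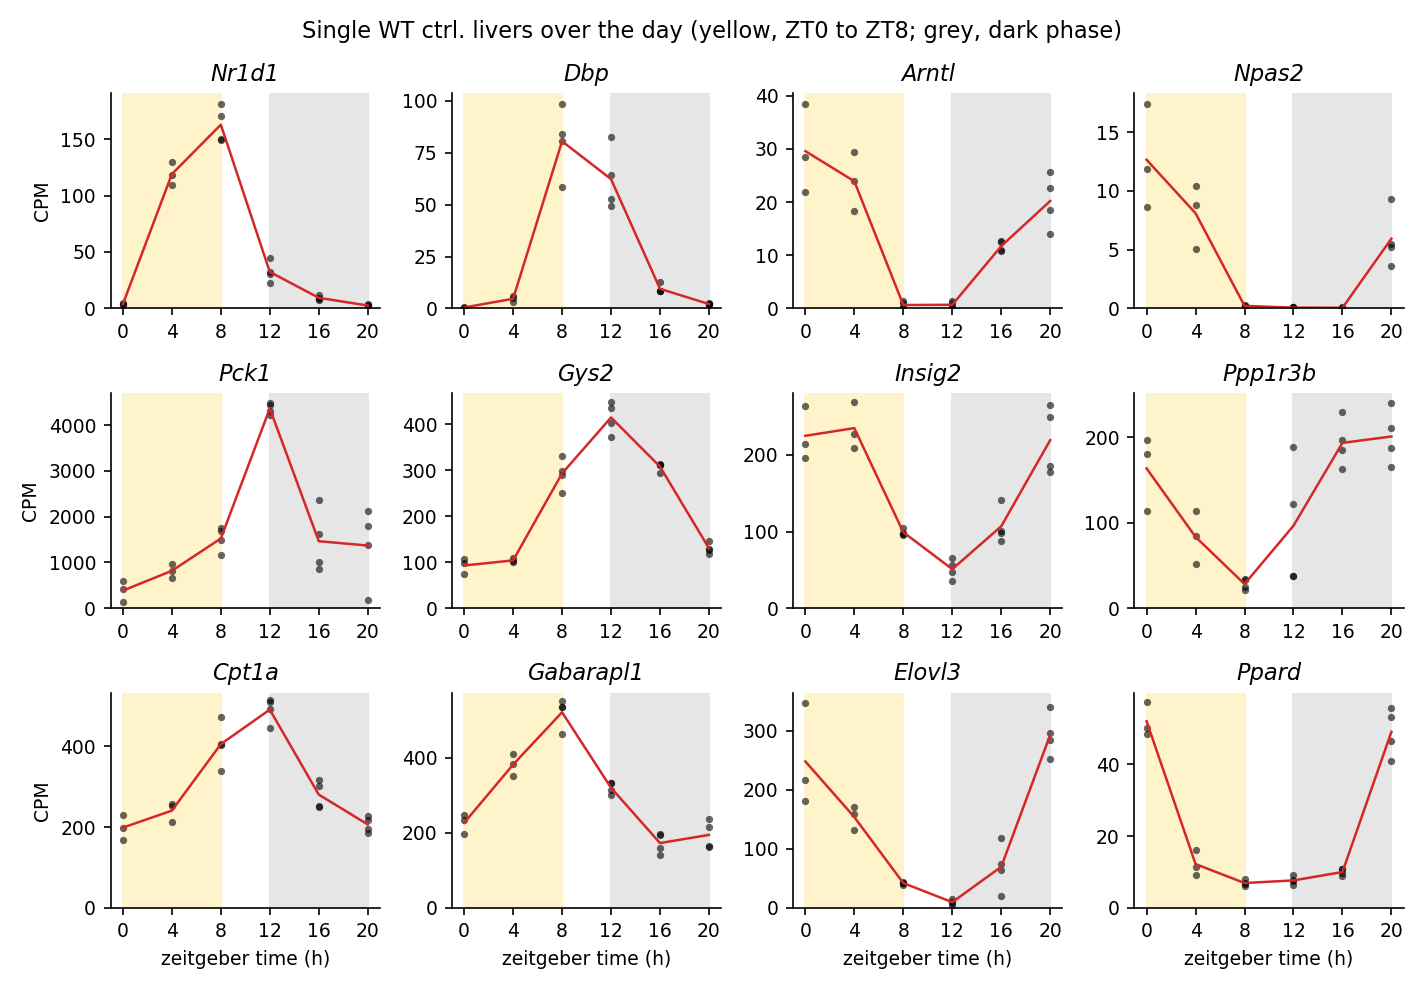
CPM of 12 genes in each WT ctrl. mouse from ZT0 to ZT20, with a line through the means, the interval from ZT0 to ZT8 in yellow and the dark phase in grey. Nr1d1 peaks at ZT8 and has fallen by ZT12, Arntl is near 0 at ZT8 and ZT12, and Pck1 climbs from a mean of 383 CPM at ZT0 through 1523 CPM at ZT8 to 4366 CPM at ZT12.

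Most of the called genes had the same direction over these 8 h in GR-LKO livers. Nr3c1 had means ± SD of 18.8 ± 2.33 CPM at ZT0 (n = 3) and 22.6 ± 2.73 CPM at ZT8 (n = 4) there, against 75.04 ± 2.17 CPM and 94.7 ± 4.22 CPM in WT, which is the check of the labels. In these 7 livers, which share none with the WT comparison, 2163 of 11828 genes were called (18.3%), 1127 up and 1036 down. Of the 1961 genes called in WT, 1951 were tested and 1844 (94.5%) had the same direction, against 72.9% of all genes tested in both, and 1104 were called in both, which is 56.3% of the WT and 51% of the GR-LKO list. Without ZT0 mouse 3 the share was 92.5%. Dbp rose by 7.84 and Arntl fell by 3.92 on the log2 scale in GR-LKO. The difference between the genotypes was tested as an interaction over 14 libraries, and edgeR called 0 of 12235 genes (0%), with 1198 at an unadjusted p under 0.05 and 167 called by DESeq2. For Nr1d1 the interaction was -2.06 ± 0.62 (SE) (edgeR adjusted p = 0.304), for Per1 -0.94 ± 0.47 (SE) (0.536), for Pck1 -0.82 ± 0.58 (SE) (0.673) and for Tsc22d3 -1.09 ± 0.34 (SE) (0.322), so none of these passed with edgeR, and a missed threshold does not show that the genotypes act alike.

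On cal. res. most of the called genes had the same direction, with a smaller median change. In 6 other WT livers on cal. res. 1538 of 12050 genes were called (12.8%), 793 up and 745 down. Of 1951 genes called on ctrl. and tested, 1634 (83.8%) had the same direction, against 65.2% of all genes tested in both, and 648 were called in both, 33% of the ctrl. and 42.1% of the cal. res. list. Without ZT0 mouse 3 the share was 83.2%. The median change of these genes in the ctrl. direction was 0.56 on ctrl., where they were chosen for it, 0.45 in GR-LKO and 0.31 on cal. res., on the log2 scale. Levels on the 2 diets come from tables scaled apart, so only the changes within a diet were compared. Each diet also has its own set of libraries and mice. A difference in change between the diets therefore cannot be told apart from a difference between these sets. The interaction of time and diet over 13 libraries called 415 of 12365 genes (3.36%), 133 with a higher and 282 with a lower value on cal. res., and DESeq2 called 868. Of 412 tested on both diets, 241 had opposite signs (22 of them called on both diets), 123 had the same sign and a larger change on cal. res., and 48 had the same sign and a larger change on ctrl.

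**Figure D5:**
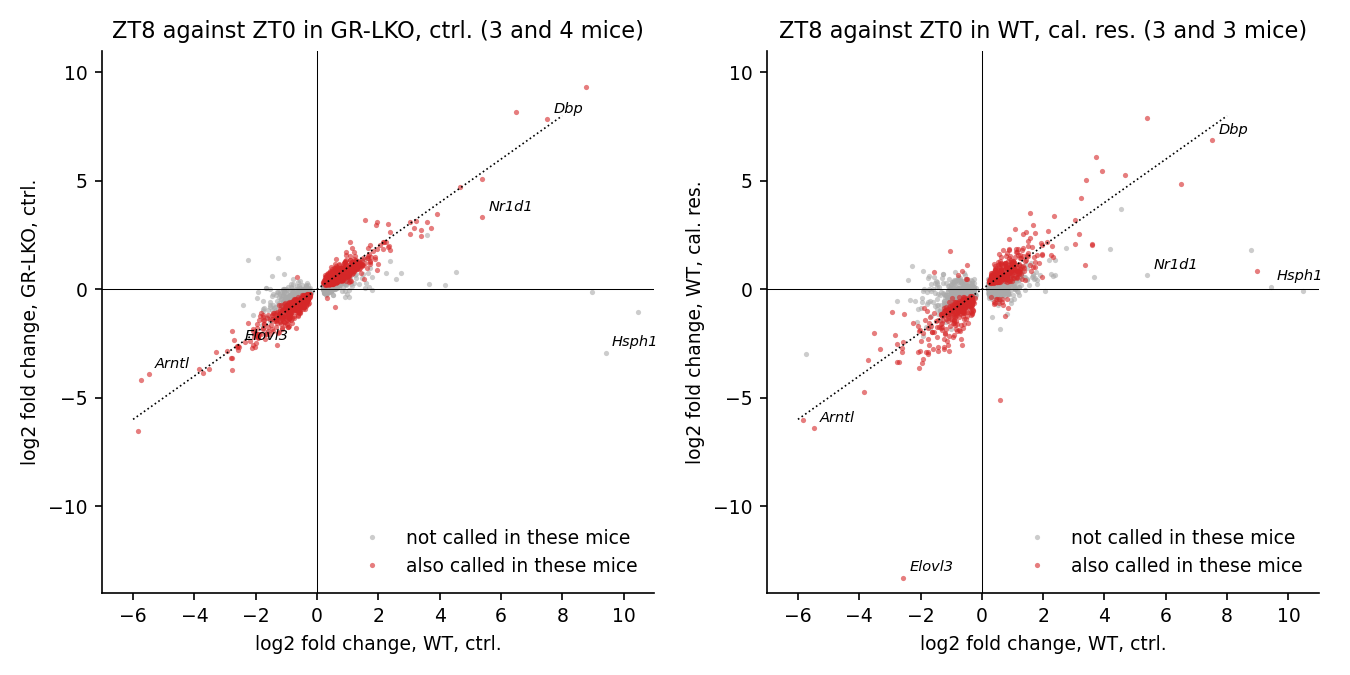
Log2 fold change from ZT0 to ZT8 of the genes called in WT ctrl. (x axis) against the same change in GR-LKO ctrl. (left) and in WT cal. res. (right, y axes), 1 point per gene. In GR-LKO 94.5% of the genes lie on the same side of 0 and on cal. res. 83.8%. The farthest points, such as Elovl3 on cal. res., Hsph1 and Gm8430, belong to genes with no count at 1 time point, whose fitted values are no measure of size.

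Of 23 clock genes, 7 passed the interaction with diet, against 3.36% of all genes. Nr1d1, with a log2 fold change of 5.39 on ctrl., had means ± SD (n = 3) of 48.8 ± 15 CPM at ZT0 and 76.1 ± 21.3 CPM at ZT8 on cal. res. and a change of 0.64 (difference -4.77 ± 0.36 (SE), edgeR adjusted p = 0.00017). Nr1d2 also had a smaller change there, of 2.09 (difference -1.52 ± 0.21 (SE), edgeR adjusted p = 0.00365). With 2 time points compared, a smaller rise and an earlier rise cannot be told apart. Cry1, which fell on ctrl., changed by -0.49 on cal. res. without passing there (adjusted p = 0.248) and differed between the diets (difference 1.84 ± 0.30 (SE), edgeR adjusted p = 0.00962). Per2 rose by 4.12 on cal. res., from 3.61 ± 1.21 CPM to 62.7 ± 14 CPM (difference 3.27 ± 0.44 (SE), edgeR adjusted p = 0.00294), and Per3 by 5.46 (difference 1.53 ± 0.25 (SE), edgeR adjusted p = 0.00917). Nfil3 fell by 3.63 (difference -1.60 ± 0.26 (SE), edgeR adjusted p = 0.00955), further than on ctrl. Usp2, of the output list, rose by 6.12 (difference 2.40 ± 0.39 (SE), edgeR adjusted p = 0.00848). For Dbp, Arntl, Npas2 and Tef the interaction did not pass (edgeR adjusted p = 0.723, 0.676, 0.911 and 0.642).

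Several metabolic genes also differed between the diets. Cyp8b1, the enzyme of cholic acid synthesis, fell on cal. res. from a mean ± SD of 631 ± 254 CPM to 62.6 ± 33.7 CPM (difference -3.49 ± 0.58 (SE), edgeR adjusted p = 0.00951), and G6pc from 361 ± 119 CPM to 32.04 ± 18.8 CPM (difference -3.12 ± 0.55 (SE), edgeR adjusted p = 0.0125). Neither passed on ctrl. Elovl3 had no count in any of the 3 cal. res. mice at ZT8, at least 402-fold below its mean of 67.9 CPM at ZT0 by the floor of 3 counts. Cpt1a, Ulk1 and Gabarapl1, which rose on ctrl., changed by 0.28, 0.44 and -0.12 on cal. res. (interaction -0.74, -0.99 and -1.32, edgeR adjusted p = 0.0452, 0.0171 and 0.00524). The interaction call of Cpt1a was lost with 10 of 13 single mice left out. Within cal. res. Ulk1 was called as higher at ZT8 (edgeR adjusted p = 0.0199), and Cpt1a and Gabarapl1 were not called (0.123 and 0.6845).

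The other genes that led the interaction by their adjusted p are less known in this setting. Rhobtb1, an atypical small GTPase, fell by 0.49 on ctrl. and rose by 1.13 on cal. res. (difference 1.60 ± 0.13 (SE), edgeR adjusted p = 0.000212). Angptl8 fell on ctrl. and rose by 0.79 on cal. res. (difference 2.32 ± 0.20 (SE), edgeR adjusted p = 0.000212). Fbxo21, a ubiquitin ligase subunit, rose on ctrl. from 43.9, 32.1 and 39.98 CPM to 146, 165, 198 and 134 CPM and changed by -0.08 on cal. res. (difference -2.13 ± 0.21 (SE), edgeR adjusted p = 0.000553). Ppard fell on both diets, by 2.93 and 1.03 (difference 1.89 ± 0.17 (SE), edgeR adjusted p = 0.000257). Slc22a28, an organic anion carrier, and Ivns1abp, which binds actin, were not called on ctrl. and changed by -3.27 and 1.24 on cal. res. (difference -3.47 ± 0.31 (SE), edgeR adjusted p = 0.000212 and difference 1.23 ± 0.11 (SE), edgeR adjusted p = 0.000257).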

How the data were processed

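PolyA RNA of mouse livers was sequenced by the authors. The deposited values are estimated counts per gene made by the authors with Salmon and tximport, not normalized, with mm10 named as the genome build in the submitters' processing notes, which also list FastQC, MultiQC and DESeq2. The annotation release behind the estimated counts is not given in the sources used here. Of 27654 gene IDs, 27244 were matched to a symbol. For the results above, estimated counts were rounded, genes were kept with filterByExpr in edgeR (minimum count 10), libraries were scaled by TMM, and groups were compared with edgeR's quasi-likelihood test (edgeR 4.0.16, R 4.3.3) at a Benjamini-Hochberg adjusted p under 0.05, each comparison fitted on its own libraries. The interactions were fitted over the 4 groups concerned. p-values measure the spread between mice. The members, gene lists and markers were chosen with earlier results of these data known. Named genes were the 12 with the largest and the 12 with the smallest log2 fold change among called genes with a mean of at least 5 CPM in 1 group and no overlap of mice, and of each list the key members and up to 3 further called members. For the interactions they were the 8 genes with the smallest adjusted p, with the same CPM minimum, and key members past the threshold. Other called members are named only to complete a count, and some genes of these rules are not reported here. Alternatives were DESeq2 (1.42.0), DESeq2 size factors, other filters, 1 fit of all WT ctrl. libraries, a replicate block and leaving out each mouse. On simulated counts of 11692 genes for ZT8 against ZT0, 65% of changes of 1 and 90% of changes of 2 on the log2 scale were recovered. For the interaction with genotype (12076 genes) 58% and 90% were recovered. In both, 100 changes of each size were planted in genes with a mean of at least 1 CPM, with no other difference between groups. Unchanged genes were called 11 and 5 times. These shares hold for that setting and do not give the share of real changes called. Counts on ctrl. and cal. res. came from separate tables. Promoter windows were matched by symbol to RefSeq (GRCm38.p6) for 9215 of 11873 tested genes.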

Additional observations from a re-analysis of the deposited data

Results flagged for a closer look

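Of 208 named or listed genes examined at ZT8, 8 had 1 of the 4 WT ctrl. mice far from the other three, where chance alone flags about 1 in 20 genes, or 10.4. Of these 8, 7 are given. The highest mouse stood apart for Elovl6 (210.8 CPM), Bag3 (29.7 CPM), Sdf2l1 (27.4 CPM) and Hyou1 (141 CPM), and the lowest for Sqstm1 (346 CPM), Cox4i1 (305 CPM) and Ccnd2 (5.89 CPM).

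The change from ZT0 to ZT8 differed between the diets by the interaction test for the following genes, given as the log2 change on cal. res. minus that on ctrl. Among clock genes and their output it was -4.77 for Nr1d1, -1.52 for Nr1d2, 1.84 for Cry1, 1.53 for Per3, 3.27 for Per2, -1.60 for Nfil3 and 2.40 for Usp2. For glucose and insulin genes it was -3.12 for G6pc and -1.11 for Irs1, whose call was lost in 10 of 13 fits that left out 1 mouse. For lipid, sterol and bile acid genes it was -3.49 for Cyp8b1, -0.74 for Cpt1a (lost in 10 of the 13), 1.89 for Ppard and 2.32 for Angptl8. For autophagy genes it was -0.72 for Sqstm1, -0.99 for Ulk1 and -1.32 for Gabarapl1. For glucocorticoid-induced and chaperone genes it was 1.64 for Tat, 1.05 for Tsc22d3 and 1.11 for Hspa8, calls lost in 8, 6 and 9 of the 13 fits. For the rest it was 1.60 for Rhobtb1, -3.47 for Slc22a28, 1.23 for Ivns1abp and -2.13 for Fbxo21.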

How the results depend on the processing

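None of the 114 named genes called between ZT0 and ZT8 changed direction under any alternative. The call was kept by 112 with DESeq2, 114 with DESeq2 size factors, 109 with no filter, 108 of 112 at a minimum count of 50, 106 in 1 fit of all WT ctrl. libraries, and 69 with every mouse left out in turn. The called total was 378 at an absolute log2 fold change of at least 1. DESeq2 called 167 genes instead of 2 between ZT0 and ZT4, 167 instead of 0 for the interaction with genotype and 868 instead of 415 for that with diet, and the cause was not tested. With each library left out in turn the totals ranged from 983 to 2096 for ZT8 against ZT0, from 1 to 5 for ZT4 against ZT0, from 397 to 639 for ZT8 against ZT4, from 1288 to 1946 in GR-LKO, from 691 to 1260 on cal. res., from 0 to 3 for the interaction with genotype and from 179 to 460 for that with diet. The same replicate number marks no shared animal, and the titles name no shared litter or day, so the numbers were not taken as pairs. Deviations of same-numbered ZT0 and ZT8 mice correlated at 0.167, -0.021 and 0.021, and those of differently numbered mice at -0.143 to 0.077. So few values cannot decide whether the numbers mark a shared litter or day. The fits with the replicate block also left out mouse 4 of each ctrl. ZT8 group. Their totals were 787 for ZT8 against ZT0, 226 for ZT8 against ZT4, 615 in GR-LKO, 960 on cal. res. and 69 for the interaction with diet. Of the named genes, 70 of the 114 and 11 of the 26 named for the interaction with diet kept their call. Without a block, leaving out ZT8 mouse 4 of WT gave 1322 for ZT8 against ZT0, 599 for ZT8 against ZT4 and 246 for the interaction with diet. Leaving out ZT8 mouse 4 of GR-LKO gave 1555 there. Estimated counts carry an assignment error between similar genes that is not in the p-values. Of the genes tested, 188 had 0 in 1 library and at least 5 CPM in another of the same time point over the 6 WT ctrl. time points, of which edgeR called 12 between ZT0 and ZT8.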
